A study of Arabidopsis thaliana with 8 samples.

Results

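Genes of chloroplast defence against peroxide and superoxide were followed in red light: the chloroplast peroxiredoxin gene AT3G52960, NTRC (AT2G41680), SRX (AT1G31170) and CCS (AT1G12520). They were chosen by name, as the probes that the platform's annotation assigns to exactly 1 gene, that gene being one of these. Earlier results of these data were known when the genes and tests were chosen. Each of the 4 lay on 1 probe, out of 691 genes named by 692 single-gene probes and 3439 probes in all. Total RNA came from wild-type (WT) Arabidopsis thaliana of ecotype Landsberg, kept for 48 hours under red light, at 200 µE on 4 arrays and at 20 µE on 4 arrays. Both groups share the genotype and the length of exposure. They differ by label in the light level, which the labels write as µE without a unit of area or time. Tissue, plant age, any pooling and the make of the array are not given in the labels. Whether replicate arrays hold RNA of separate plants is not stated either, so the p-values speak for the spread among these arrays, and that spread may be technical.

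Peroxiredoxins are thiol enzymes that reduce hydrogen peroxide and organic peroxides with a reactive cysteine, and in chloroplasts they deal with peroxide formed beside photosynthetic electron transport. NTRC is a thioredoxin reductase with its own thioredoxin domain that passes electrons from NADPH to the 2-Cys peroxiredoxins, and SRX, sulfiredoxin, repairs peroxiredoxins whose cysteine has been overoxidised. CCS acts one step upstream of peroxide: it delivers copper to copper/zinc superoxide dismutase, which turns superoxide into hydrogen peroxide. The genes of the 2-Cys peroxiredoxins, on which NTRC acts, lay on no single-gene probe, so that step was measured through its reductase and not through its substrate.

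The deposited values are intensities scaled so that the brightest probe of each array stands at 100. The median of the probes above 0 ran from 0.513 to 0.578 on the 200 µE arrays and from 0.267 to 0.345 on the 20 µE arrays, and 476 to 540 probes were listed at 0 on the 200 µE arrays, against 573 to 604 on the 20 µE arrays. Most probes were therefore brighter at 200 µE as deposited, with a median log2 difference of 0.82 among the 2600 that were above 0 on every array. For this reason each gene is given both as deposited and after quantile normalization, which makes the distribution of values the same on all arrays and leaves only a gene's place among the other probes. Arrays with replicate numbers 1 and 2 stood apart from those with numbers 3 and 4 on the first principal component (53.0% of the variance), and the light levels were separated on the second (23.2%). These sets were seen in the data and the labels do not name them. Same-numbered arrays of the light levels deviated together, with correlations of 0.707 to 0.735 across probes, so the light difference is also given pair by pair. Of the 8 genes on a list of green-tissue markers, 4 lay on single-gene probes, and all 4 were above 0 on every array: LHB1B2 at 4.99 to 6.87 at 200 µE and 10.5 to 24.8 at 20 µE, and PSAN, PSBY and PRK at 0.682 to 3.10 at 200 µE and 0.414 to 2.64 at 20 µE as deposited. The 4 root markers listed lay on no single-gene probe.

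The peroxiredoxin gene AT3G52960 was brighter at 200 µE and the chaperone gene CCS was not. After quantile normalization they moved in opposite directions by about the same amount. The amounts depend on the scaling: with median centring they were 1.23 and −0.85 on the log2 scale, and as deposited 2.08 and −0.0076. In RNA of whole samples, fewer cells that express a gene and less of its RNA per cell cannot be told apart. Of the 4 genes, 1 rose (AT3G52960), 1 fell (CCS) and 2 did not pass the test (NTRC and SRX). Over all 3439 probes 6.83% passed in either direction, 2.30% higher and 4.54% lower at 200 µE. Calls are from limma on log2 normalized intensity, two-sided, at an adjusted p under 0.05, the adjustment (Benjamini-Hochberg) being made over the whole array. This fit leaves out the replicate number, and the calls depend on that. With the replicate number as a block 619 probes passed in place of 235. NTRC then passed too, AT3G52960 and CCS kept their calls, and SRX did not pass. The call of CCS also depends on the scaling: it did not pass as deposited, with median centring or scaled by the summed intensity of each array.

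AT3G52960 had deposited intensities of 0.409, 0.396, 0.586 and 0.590 at 200 µE in replicates 1 to 4, against 0.0880, 0.110, 0.130 and 0.140 at 20 µE. All 4 arrays at 200 µE were above all 4 at 20 µE, as for 42.0% of the probes above 0 on every array, with a gap between the groups that was wider than the range within either, and replicates 3 and 4 were the brighter ones at both light levels. The deposited difference was 4.22-fold, with a 95% interval of 2.88 to 6.19 (limma, adjusted p = 0.00653). In the deposited values 25.7% of all probes passed as higher, so direction alone sets this gene apart from few others. Its size was 2.08 on the log2 scale, against a median of 0.91 for the 650 probes of its brightness class (1 of 4 equal classes), of which 10 had a larger difference. After normalization the intensity was 0.372 ± 0.0603 at 200 µE and 0.182 ± 0.0246 at 20 µE (SD, n = 4 each). On the log2 scale it was higher by 1.03 ± 0.15 (SE; limma, adjusted p = 0.0111) and higher in 4 of 4 pairs, as were 24.2% of the probes above 0 on some array. The groups did not overlap, which was so with 200 µE higher for 5.90% of the probes above 0 on some array. In place among the probes of its array, AT3G52960 stood between percentiles 47.9 and 58.1 at 200 µE and between 29.1 and 36.1 at 20 µE. It was among the dimmer probes of the array in dim light and near the middle in bright light.

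CCS had nearly the same deposited intensity at both light levels, 0.347, 0.290, 0.312 and 0.292 at 200 µE, against 0.278, 0.358, 0.292 and 0.322 at 20 µE. The groups overlapped, and the 200 µE array was the brighter one in 2 of 4 pairs. The deposited fold was 0.995 with a 95% interval of 0.776 to 1.28 (limma, adjusted p = 0.967), so a change within these bounds cannot be told from none. CCS was also the least variable of the 4 genes as deposited, with a coefficient of variation of 8.47% at 200 µE and 11.4% at 20 µE, against 19.7% to 31.7% for AT3G52960 and NTRC. Its place among the other probes was lower at 200 µE. It stood between percentiles 36.1 and 43.5 of its array at 200 µE and between 53.9 and 69.1 at 20 µE. Normalized, it had 0.232 ± 0.0278 at 200 µE and 0.456 ± 0.0908 at 20 µE (SD, n = 4 each), with −0.96 ± 0.15 as the log2 change (SE; limma, adjusted p = 0.016). It was lower in 4 of 4 pairs, as were 26.3% of the probes above 0 on some array, and the groups did not overlap, as for 9.62% of probes with 200 µE lower. Of the 650 probes of its brightness class, 27 had a smaller deposited difference. The fall is a fall against the other probes: scaled by the summed intensity of each array, in which the brightest probes weigh most, the difference was −0.28 ± 0.18 (SE; limma, adjusted p = 0.275). With median centring it was −0.85 (limma, adjusted p = 0.0502), and leaving out the 200 µE array of replicate 2, 3 or 4 gave adjusted p values of 0.0542, 0.0528 and 0.0516 by limma.

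**Figure D1:**
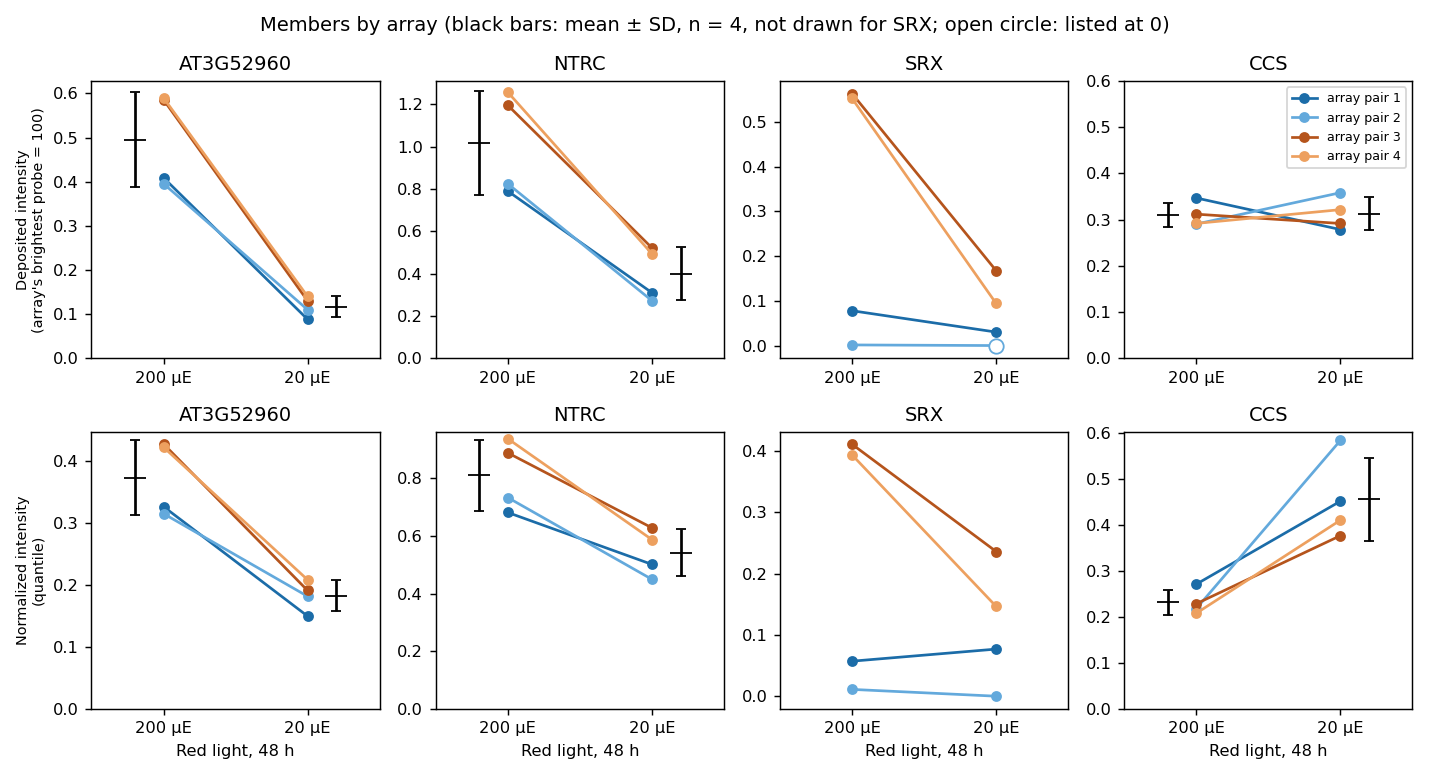
Intensity of the 4 genes on each array, as deposited (top, array's brightest probe at 100) and after quantile normalization (bottom), with 200 µE left of 20 µE, lines joining same-numbered arrays and black bars for mean ± SD (n = 4; not drawn for SRX). AT3G52960 and NTRC are higher at 200 µE in both rows, CCS is level as deposited and lower after normalization, and SRX is near 0 in replicates 1 and 2.

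NTRC, the reductase, went the way of AT3G52960 by a smaller amount. Its deposited intensities were 0.790, 0.825, 1.20 and 1.26 at 200 µE, against 0.310, 0.272, 0.522 and 0.494 at 20 µE. The groups did not overlap, which held with 200 µE higher for 42.0% of the probes above 0 on every array, and replicates 3 and 4 were again the brighter ones at both levels. As deposited the difference was 2.59-fold (95% interval 1.59 to 4.22; limma, adjusted p = 0.0199), and 66 of the 650 probes of its brightness class had a larger difference. Normalized, NTRC had 0.81 ± 0.122 at 200 µE and 0.542 ± 0.0811 at 20 µE (SD, n = 4 each), a log2 difference of 0.58 with a 95% interval of 0.22 to 0.94, which did not pass over all probes (limma, adjusted p = 0.0775). The 4 pairs gave 0.44, 0.71, 0.50 and 0.67 on the log2 scale, all higher at 200 µE, where the share of probes higher in all 4 pairs was 24.2%. With the replicate number as a block NTRC passed (limma, adjusted p = 0.0177), where 7.91% of all probes passed as higher.

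SRX, the repair enzyme, was dim and divided by replicate more than by light. Its deposited intensities were 0.0778, 0.00139, 0.563 and 0.552 at 200 µE in replicates 1 to 4, against 0.0301, 0, 0.167 and 0.0940 at 20 µE. Each 200 µE array was above its same-numbered 20 µE array, as for 70.9% of the probes above 0 on some array, but the groups overlapped, since replicates 1 and 2 at 200 µE lay below replicates 3 and 4 at 20 µE. In the 3 pairs above 0 on both arrays, the deposited folds were 2.59, 3.36 and 5.87 in replicates 1, 3 and 4. After normalization these pairs differed by −0.43, 0.80 and 1.42 on the log2 scale, so that replicate 1 turned direction. The pair of replicate 2 gives no fold, because its 20 µE array is listed at 0 and only an assigned floor stands in its place. The fit that includes this floor gave a log2 value of 1.64 ± 2.35 (SE; limma, adjusted p = 0.837), and −0.45 without the 20 µE array of replicate 2, so no direction can be read from it. Replicates 3 and 4 alone gave 1.11 ± 0.31 (SE; limma, adjusted p = 0.141).

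**Figure D2:**
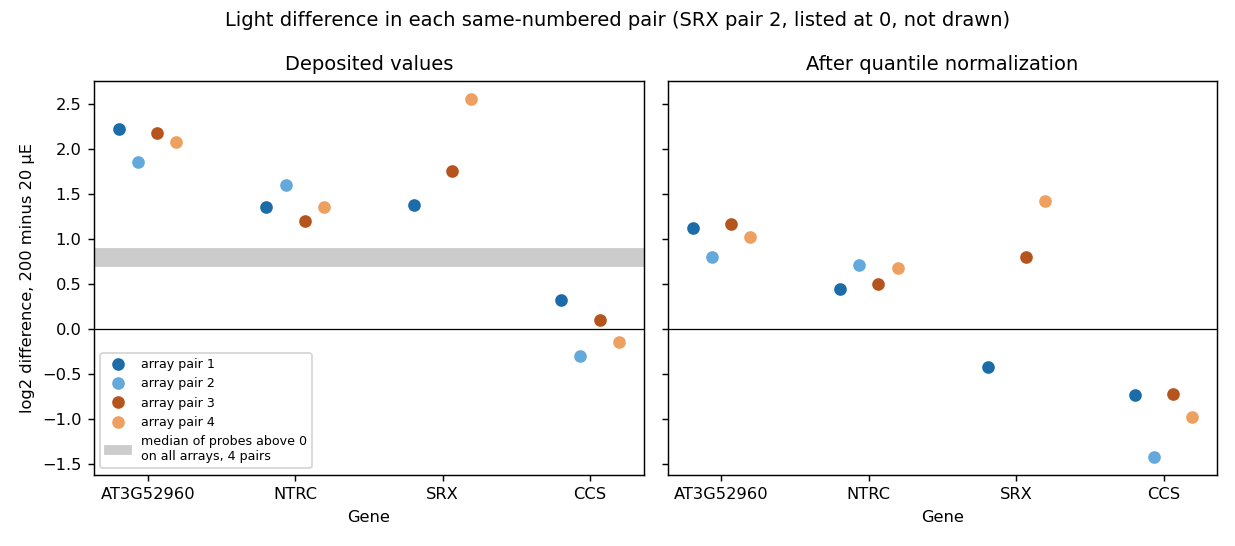
Log2 difference in intensity, 200 minus 20 µE, in each same-numbered pair of arrays, as deposited (left) and after quantile normalization (right). In the left panel the grey band spans the pairs' median differences over probes above 0 on all arrays (0.70 to 0.89): all pairs drawn of AT3G52960, NTRC and SRX lie above it and all 4 pairs of CCS below it.

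AT3G52960, NTRC and SRX were then compared with CCS inside each array, by taking each gene's change relative to the change of CCS. Any factor shared by all probes of an array drops out of this difference, so the deposited values, median centring and scaling by the sum give the same result. Relative to CCS, AT3G52960 rose in every pair, by deposited factors of 3.73, 4.44, 4.21 and 4.65 in replicates 1 to 4. The mean deposited log2 change against CCS was 2.09 ± 0.26 (SE; limma over all probes taken relative to CCS, adjusted p = 0.0147), and after normalization 1.99 ± 0.27 (SE; limma, adjusted p = 0.00458). NTRC rose relative to CCS by deposited factors of 2.05, 3.74, 2.14 and 2.81, with a log2 change of 1.38 ± 0.35 (SE; limma, adjusted p = 0.0346), and after normalization 1.54 ± 0.30 (SE; limma, adjusted p = 0.00662). Many probes pass such a test: 18.5% of probes passed as higher than CCS in the deposited values and 46.0% after normalization. Without reference to CCS, 25.7% passed as higher in the deposited values and 2.30% after normalization. CCS itself was level as deposited, while most probes were brighter at 200 µE, and it fell after normalization. A pass against CCS is thus common. In size, 97.5% of the probes above 0 on all arrays had a deposited change no larger than that of AT3G52960, 84.7% one no larger than that of NTRC and 9.5% one no larger than that of CCS.

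SRX had deposited factors against CCS of 2.08, 3.15 and 6.47 in replicates 1, 3 and 4, higher in each of these pairs. Its fitted change against CCS, which includes the floor, did not pass (2.60 ± 2.32, SE; limma, adjusted p = 0.363). In replicates 3 and 4 alone it was 1.96 ± 0.33 (SE; limma, adjusted p = 0.0162), in a fit where 59.5% of probes passed as higher than CCS, so this pass is near the background.

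AT3G52960 changed more than NTRC, which is a reductase and not a peroxiredoxin, in each pair, by deposited factors of 1.82, 1.19, 1.97 and 1.66. This comparison was added after the values had been seen, and it did not pass: the normalized log2 difference between their changes was 0.44 with a 95% interval of 0.09 to 0.80 (limma over all probes taken relative to NTRC, adjusted p = 0.0634), where 29.8% of probes passed in either direction and 0.814% as higher than NTRC. It passed in 3 alternatives: with cyclic loess in place of quantile normalization (0.52; limma, adjusted p = 0.0448), in replicates 3 and 4 alone (0.50; limma, adjusted p = 0.0473) and as deposited with the replicate block (0.70; limma, adjusted p = 0.0384).

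**Figure D3:**
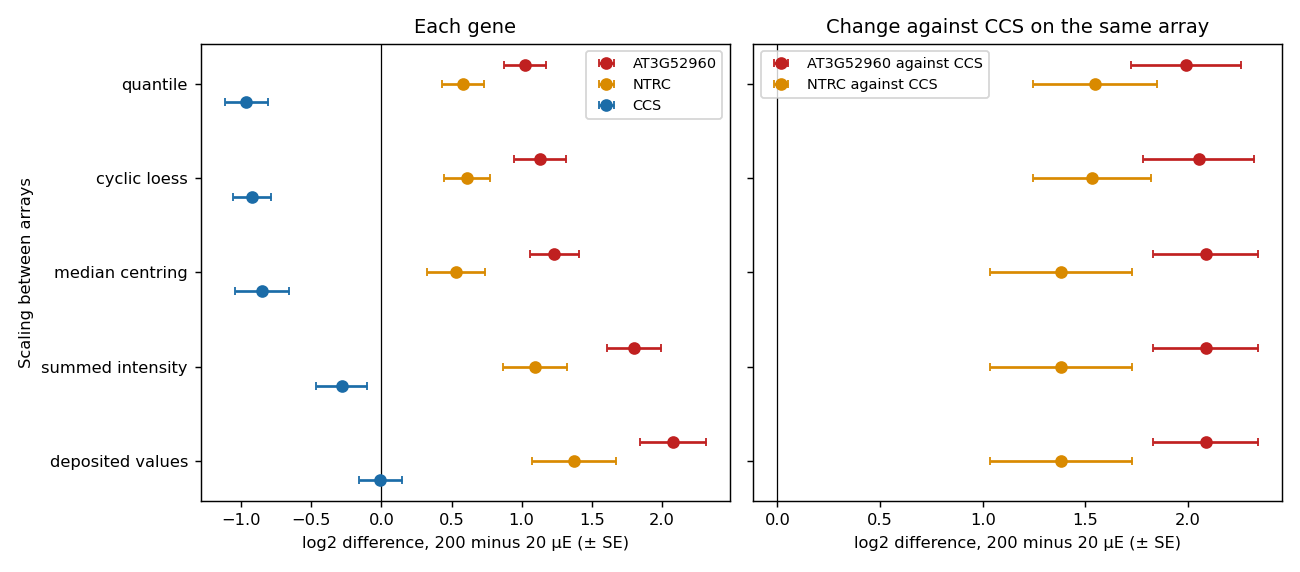
Log2 difference, 200 minus 20 µE, with SE bars under 5 scalings between arrays, for each gene (left) and for the change against CCS on the same array (right). The value of CCS runs from −0.96 to −0.0076 and that of AT3G52960 from 1.03 to 2.08 in the left panel, while AT3G52960 against CCS stays between 1.99 and 2.09 in the right panel.

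The light difference had the same direction in both sets of arrays for each of the 3 genes measured throughout. AT3G52960 differed by 0.96 in replicates 1 and 2 and by 1.09 in replicates 3 and 4 on the normalized log2 scale. NTRC differed by 0.57 and 0.59, and CCS by −1.08 and −0.85. The difference between the sets' light differences was 0.13 ± 0.15 for AT3G52960, 0.01 ± 0.11 for NTRC and 0.23 ± 0.25 for CCS (SE; limma interaction, adjusted p = 0.794, 1.0 and 0.776), while 5.79% of probes passed this test. With 2 arrays a group in each set, a test that does not pass cannot show that the sets are alike. Replicates 1 and 2 alone did not pass for AT3G52960 (limma, adjusted p = 0.0692) or CCS (0.118), in a fit where 333 of 3439 probes passed. Replicates 3 and 4 alone, with as many arrays, passed for both (limma, adjusted p = 0.0184 and 0.0353), in a fit where 611 probes passed (17.8%).

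The sets did differ in level. Averaged over the light levels, AT3G52960 was higher in replicates 3 and 4 than in replicates 1 and 2 by 0.34 ± 0.07 on the normalized log2 scale (SE; limma, adjusted p = 0.0143), and NTRC by 0.36 ± 0.05 (SE; limma, adjusted p = 0.0033). CCS was −0.27 ± 0.12 (SE; limma, adjusted p = 0.129) and SRX 4.50 ± 1.70 (SE; limma, adjusted p = 0.0846), the last again with the floor. A level difference between the sets passed for 42.9% of all probes, so it is no mark of these genes. For SRX the fitted difference between the sets was larger than that between the light levels (1.64 ± 2.35, SE), but neither passed. As deposited, replicates 3 and 4 averaged 0.557 at 200 µE and 0.131 at 20 µE, against 0.0396 and 0.0150 in replicates 1 and 2. At 20 µE replicates 3 and 4 had 0.167 and 0.0940, against 0.0301 and 0 in replicates 1 and 2. Across light levels the margin was narrower, since replicate 1 had 0.0778 at 200 µE.

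**Figure D4:**
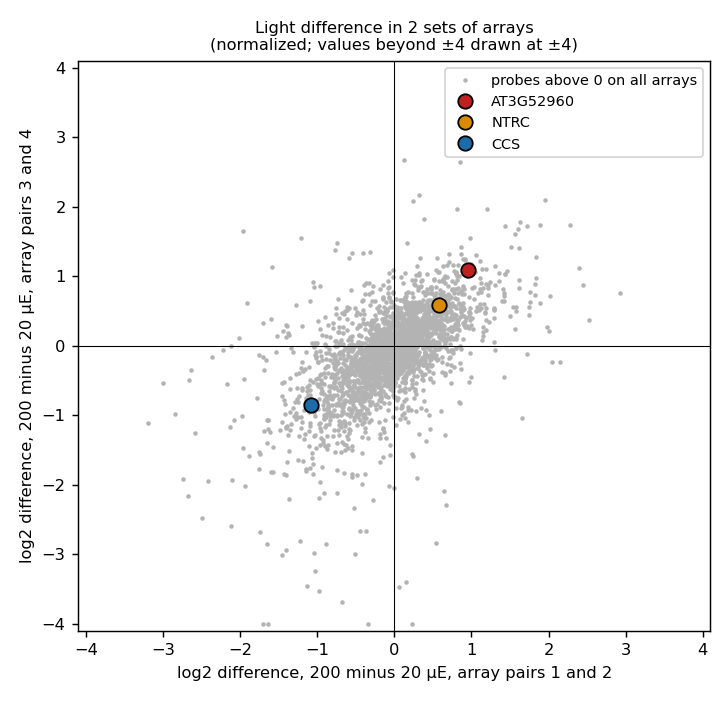
Normalized log2 difference, 200 minus 20 µE, in array pairs 1 and 2 (x axis) and in pairs 3 and 4 (y axis), for the 2600 probes above 0 on all arrays (grey) and 3 of the genes. AT3G52960 (0.96 and 1.09) and NTRC (0.57 and 0.59) are higher at 200 µE in both sets and CCS (−1.08 and −0.85) is lower in both.

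The rest of the antioxidant network was sparsely covered. Of 62 genes on 6 lists of peroxiredoxins, superoxide dismutases and copper delivery, the ascorbate and glutathione cycle, thioredoxins and their reductases, and repair and glyoxalase, 7 lay on single-gene probes and 7 more on probes shared by several genes, which were not used. The 7 on single-gene probes were AT3G52960, NTRC, SRX and CCS themselves, with GLDH, AT2G04700 and GLX2-1. Of these 7, 1 passed as higher (AT3G52960) and 1 as lower (CCS), and the other 5 did not pass. Over all probes 2.30% passed as higher and 4.54% as lower. No list gene beyond those followed above passed. The 5 of the 7 that were above 0 on every array were AT3G52960, NTRC, CCS, GLDH and AT2G04700. Their median normalized log2 difference of 0.02 is the value of GLDH, against −0.04 among all probes above 0 on every array. It does not describe the wider network. The superoxide dismutases that CCS serves lay on no single-gene probe. GLDH, the last enzyme of ascorbate synthesis, had deposited intensities of 0.447, 0.429, 0.431 and 0.510 at 200 µE, against 0.221, 0.205, 0.231 and 0.266 at 20 µE. As deposited it was higher by 0.98 on the log2 scale (limma, adjusted p = 0.008), near the array's median, and normalized it differed by 0.02 ± 0.07 (SE; limma, adjusted p = 1.0). AT2G04700, from the list of thioredoxins and reductases, stood at −0.45 ± 0.26 as a normalized log2 difference (SE; limma, adjusted p = 0.433) and at 0.70 as deposited. Leaving out the 20 µE array of replicate 1, its dimmest at 0.0594, gave −0.71 (limma, adjusted p = 0.0123). GLX2-1, a glyoxalase gene, was divided by replicate as SRX was, with 0.0280, 0.0668, 0.732 and 0.986 at 200 µE, against 0, 0, 0.136 and 0.174 at 20 µE. It was higher at 200 µE in every pair as deposited, and with 2 arrays at 0 it is given no fold.

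Genes with the most similar course over the arrays were found among the single-gene probes above 0 on all arrays, by the root mean square distance between normalized log2 profiles, each centred on its own mean. For AT3G52960 these were AT3G15490, AT1G51350 and AT3G52550, at distances of 0.163 to 0.223 over 8 arrays, against a median of 0.726 over 536 genes. NTRC came at place 6 of the 536 in the order from AT3G52960, and CCS at place 461. For NTRC the nearest were AT5G66090, AT1G55440 and AT1G73470, at 0.0756 to 0.118 (median 0.585), with AT3G52960 at place 44 and CCS at place 433. For CCS they were PRA1.B3, AT3G27110 and AT5G66530, at 0.159 to 0.211 (median 0.68). Their log2 differences were −0.77, −1.05 and −0.71, a direction fixed by their choice as close to CCS. SRX had no close match: over the 7 arrays on which it was above 0, the nearest genes AT2G28790, AT2G22890 and AT2G03200 lay at 0.791 to 0.933 (median 1.78). The arrays' sets, shared by all genes, enter these distances, and so do the light differences already given. The places of AT3G52960, NTRC and CCS in each other's order are thus no separate evidence.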

How the data were processed

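Intensities of 3439 probes on 8 single-channel arrays were used as the authors deposited them. How they were made is not given in the labels. From the values, the deposited intensities are linear, not negative, and scaled to a maximum of 100 on each array. Groups and replicate numbers were taken from the labels. A value of 0 was replaced by the array's lowest positive one before quantile normalization and log2. Fits used limma 3.58.1 in R 4.3.3 (lmFit, eBayes; 200 minus 20 µE; no covariate; Benjamini-Hochberg over all probes, threshold 0.05) and were tested on simulated data. The 320 probes at 0 on all arrays entered the shared variance. Changes against CCS were fitted on every probe's log2 value minus that of CCS on the same array. No 2 arrays held identical values. Precision is limited by the number of arrays, and detection calls were not used. Probe sequences were not used here, so binding to related transcripts was not examined.

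The pairing of replicate numbers comes from the data: deviations from the group means correlated at 0.707 to 0.735 in the 4 same-numbered pairs over 2600 probes, against 0.444 to 0.462 for different numbers of the same set and −0.623 to −0.556 across sets. Blocked values of the 4 genes stand where a call on normalized values changes. Genes were named from the platform annotation (692 probes with 1 gene, of which 690 matched the RefSeq table of TAIR10.1, and 870 with several). The named genes are the 4 genes above, the members of the redox and green-tissue lists on single-gene probes, and for each of the 4 its 3 nearest profiles. Genes, lists and tests were chosen with earlier results of these data known. Alternatives were other scalings, another floor, the replicate block, filters on dim probes, each set of arrays alone and each array left out after normalization.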

Additional observations from a re-analysis of the deposited data

Results flagged for a closer look

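The named genes and the changes against CCS were searched for an array far from the other 3 of its group, in 44 groups of 4 arrays, of which 1 held such an array. Chance gives about 1 in 20. AT5G66530, one of the genes closest in course to CCS, stood at −1.94 (normalized log2) on the first 200 µE array, while the other 3 averaged −2.20. Its distance to the nearest of those 3 is 0.924 of the whole range of the group. None of the groups of AT3G52960, NTRC, SRX or CCS themselves held such an array.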

How the results depend on the processing

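AT3G52960 stayed higher at 200 µE under every alternative run (0.93 to 1.10 with single arrays left out), and its call ended in replicates 1 and 2 alone (0.96) and without both arrays of number 2 (1.10). CCS lost its call as deposited (−0.0076, with or without the replicate block), with median centring (−0.85), scaled by summed intensity (−0.28), in replicates 1 and 2 alone (−1.08) and without number 2 (−0.81), and ran from −1.05 to −0.84 with single arrays left out. NTRC passed as deposited (1.37, with or without the replicate block), scaled by the sum (1.10), in replicates 3 and 4 alone (0.59) and with the replicate block (0.58); single arrays left out gave 0.50 to 0.66. SRX passed nowhere, at −0.45 to 2.69 with single arrays left out and up to 4.48 as deposited. Against CCS, AT3G52960 passed throughout (1.86 to 2.13 with single arrays left out), NTRC lost its call in replicates 1 and 2 alone (1.65; 1.33 to 1.71 with single arrays left out), and SRX passed in replicates 3 and 4 alone (1.96; 0.39 to 3.64 with single arrays left out). GLDH turned to −0.0091 in replicates 1 and 2 alone and ran from −0.027 to 0.061 with single arrays left out, but passed as deposited (0.98, with or without the replicate block) and scaled by the sum (0.70). AT2G04700 turned to 0.70 as deposited, with or without the replicate block, and to 0.42 scaled by the sum, ran from −0.71 to −0.30 with single arrays left out, and passed in replicates 3 and 4 alone (−0.61). AT3G52960 against NTRC (0.44) passed with cyclic loess (0.52), in replicates 3 and 4 alone (0.50) and as deposited with the replicate block (0.70).

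Of all probes 235 passed (79 higher, 156 lower). In replicates 1 and 2 alone 333 passed (157 higher, 176 lower). The count was 927 as deposited (883 higher, 44 lower), 2266 as deposited with the replicate block (2180 higher, 86 lower), 619 with the replicate block (272 higher, 347 lower), 408 scaled by the sum (349 higher, 59 lower), 211 with median centring (43 higher, 168 lower), 156 without probes at 0 on any array, 146 without the lowest 25%, 611 in replicates 3 and 4 alone, 104 without number 2, and 140 to 173 with single arrays left out. Against CCS 1601 probes passed, or 657 as deposited, 131 in replicates 1 and 2 alone, 2108 in replicates 3 and 4 alone and 1046 without number 2. Scaling by the sum, leaving out number 2 and the unscaled fit with the block were chosen after seeing the data. Causes were not tested. SRX was not fitted where probes at 0 or the dimmest were left out.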
